A study of Mus musculus with 6 samples.

Results

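Thrombospondins, tenascins and periostin are secreted proteins of the extracellular matrix that bind cells, growth factors and collagen, and many of them are called matricellular because they modify how cells meet the matrix more than they build it. The genes described here were chosen by name: Thbs1, Thbs2, Thbs3, Thbs4 and Comp of the thrombospondin family, the tenascins Tnc, Tnn and Tnxb, and Postn, which encodes periostin. All 9 were found by symbol among the 56748 genes of the count tables, and all 9 passed the filter on low counts that left 18514 genes tested. RNA came from the tibia of female mice aged 12 weeks, in 3 Col1a1+/- samples, heterozygous at this gene of type I collagen, and 3 wild-type samples (labelled WT). The series presents Col1a1+/- mice as a model of osteogenesis imperfecta type I, the mild brittle bone disease in which less type I collagen is made. No sample analysed here is labelled as treated. How the allele was made is not in the labels, and neither is whether the samples are separate animals. A p-value here therefore rests on the spread among the samples. That spread may be technical, and the p-values would then not extend to mice of each genotype.

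Thrombospondins assemble through a coiled coil into trimers (Thbs1 and Thbs2) or pentamers (Thbs3, Thbs4 and Comp), and only the trimeric ones carry the properdin-like repeats through which thrombospondin-1 activates latent TGF-beta. Tenascins are large proteins built of EGF-like and fibronectin-like repeats ending in a fibrinogen-like globe, and they are abundant where tendon, periosteum and healing tissue meet load. Periostin, a protein of fasciclin domains, is made by cells of the periosteum and of ligaments, binds collagen, and helps to bring BMP1 to lysyl oxidase, the enzyme that crosslinks collagen.

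The libraries held 26.8 to 32.4 M reads counted in genes, with the mates of a pair counted separately. Col1a1 had 61149, 52880.4 and 59598 CPM (counts scaled to TMM-adjusted library totals) in the Col1a1+/- libraries, against 36810.2, 61347 and 54799 CPM in the wild-type libraries, and its log2 fold change of 0.18 did not pass the test (edgeR adjusted p = 0.78). The ratio of Col1a1 to Col1a2 reads separated the genotypes, at 0.836, 0.775 and 0.823 in Col1a1+/- libraries and 1.32, 1.25 and 1.27 in wild-type libraries, and whether the counts come from 1 or both alleles cannot be read from them. Tibia markers were present, since all 12 osteoblast and all 8 osteocyte markers were detected. Wild-type replicate 1 stood apart on the second principal component (21.6% of the variance) and had the highest neutrophil marker share, at 0.56% of counts. The 17 skeletal muscle markers took 1.70% to 3.47% of counts in Col1a1+/- libraries and 5.33% to 6.71% in wild-type libraries, and 6 of them were called lower by edgeR, 15 by DESeq2, 11 by limma-voom, 13 with library totals and 2 without the low-count filter. In bulk tissue, fewer cells of a type and less RNA per cell cannot be told apart, which holds for every value here.

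Of the 9 genes, Comp alone passed the test, higher in Col1a1+/- tibiae, while Thbs1 and Tnc were higher in every Col1a1+/- library than in any wild-type library without passing it. In all tested genes, 1.43% were called higher and 2.91% lower (4.34% in either direction, edgeR quasi-likelihood test, Benjamini-Hochberg adjusted p under 0.05). Libraries of the genotypes did not overlap for 3 of the 9 genes (33.3%), against 28.6% of all tested genes in either direction, so this count is near that background. All 3 were higher in Col1a1+/-, a direction in which 14.0% of all tested genes did not overlap, and this difference was not tested. Log2 fold changes were above 0 for 8 of the 9, with Thbs4 the exception, and their median was 0.53 against -0.01 over all tested genes. An unadjusted p under 0.05 was reached by 4 of the 9 and by 22.8% of all tested genes. Other rules gave the following counts of the 9 beside the share of all tested genes called. DESeq2 called 4 (Comp, Thbs1, Thbs3 and Tnc; 12.9% of all genes) and limma-voom 2 (Comp and Thbs1; 5.17%). Library totals in place of TMM gave 2 (7.17%), RLE scaling 1 (4.65%), no filter on low counts 3 (4.53%), a tendon score as covariate 2 (9.51%) and osteocyte scaling 0 (9.74%). Without wild-type replicate 1 the count was 3 (Comp, Thbs1 and Thbs4; 9.26%), without Col1a1+/- replicate 2 or 3 it was 1 (4.84% and 0.229%), and without wild-type replicate 2 it was 0 (0.0418%). When libraries were scaled on osteocyte genes instead, the median of all genes moved to -0.85 and 7 of the 8 genes above 0 were below 0, Comp being the exception, while the median of the 9 was 0.54 above that of all genes.

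**Figure D1:**
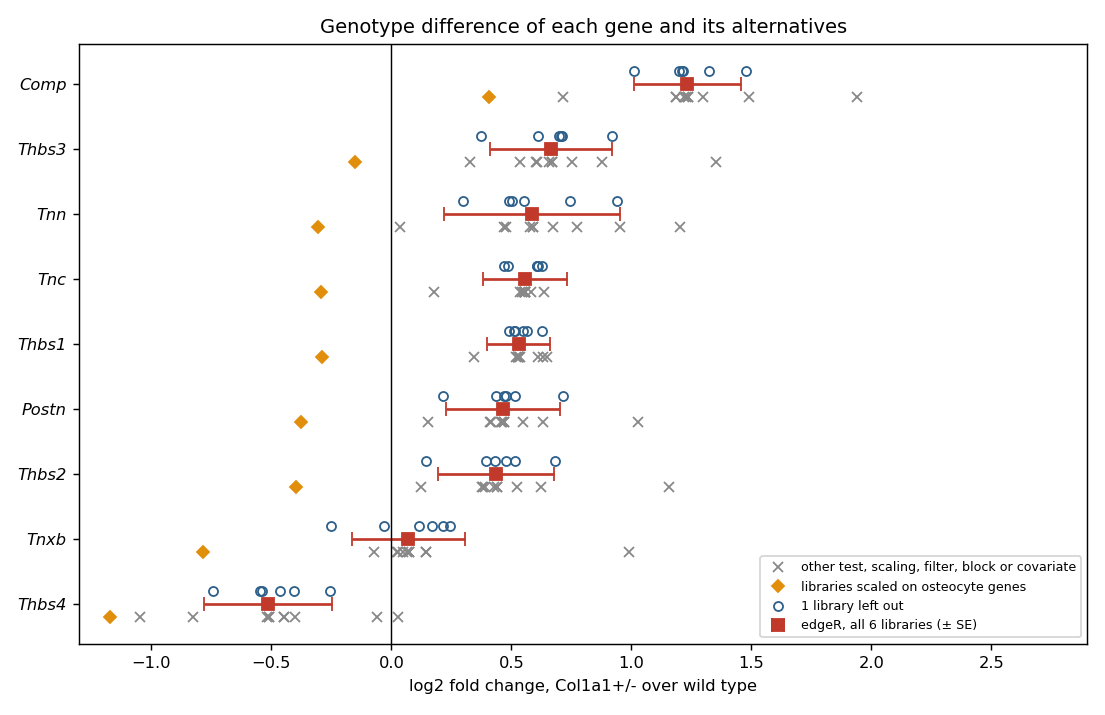
Log2 fold change of each gene, Col1a1+/- over wild type (horizontal axis), from the edgeR fit of all 6 libraries with its SE (squares and bars), with 1 library left out (circles), under another test, scaling, filter, block or covariate (crosses), and with libraries scaled on osteocyte genes (diamonds). Comp stayed above 0 in all of them, from 0.41 to 1.94, while 7 other genes turned negative with osteocyte scaling, where the median of all genes was -0.85.

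CPM divided by the deposited exon length in kilobases (RPKM) allows levels to be compared between genes. Tnc had the highest mean level in both genotypes, at 300.4 ± 33.2 RPKM in Col1a1+/- and 204 ± 22.9 RPKM in wild type (SD, n = 3 each, as in all means below). Comp came next, at 248 ± 77.2 RPKM in Col1a1+/- and 105 ± 7.51 RPKM in wild type. Postn followed with 118 ± 39.1 RPKM in Col1a1+/- and 85.2 ± 6.55 RPKM in wild type. These 3 genes and Thbs1, with 103 ± 9.71 RPKM in Col1a1+/- and 71.5 ± 1.81 RPKM in wild type, stood above the other 5 in both genotypes.

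Of the other 5, Thbs4 had 31.2 ± 3.06 RPKM in Col1a1+/- and 44.6 ± 16.4 RPKM in wild type, and Tnxb, the lowest, had 5.53 ± 1.93 RPKM in Col1a1+/- and 5.27 ± 0.738 RPKM in wild type. The rest were Thbs2 (34.4 ± 12.2 RPKM in Col1a1+/-, 25.4 ± 2.62 RPKM in wild type), Tnn (32.8 ± 15.2 RPKM in Col1a1+/-, 21.8 ± 3.91 RPKM in wild type) and Thbs3 (9.04 ± 3.28 RPKM in Col1a1+/-, 5.70 ± 0.602 RPKM in wild type). Among neighbours in the order of levels, ranges over the 3 libraries did not overlap in Col1a1+/- for Comp over Postn, Thbs1 over Thbs2 and Tnn over Thbs3. In wild type they did not overlap for Tnc over Comp, Comp over Postn, Postn over Thbs1, Thbs1 over Thbs4 and Tnn over Thbs3. The ranges of Thbs2, Thbs4 and Tnn all overlapped in Col1a1+/-, and in wild type that of Thbs2 overlapped those of both Thbs4 and Tnn.

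**Figure D2:**
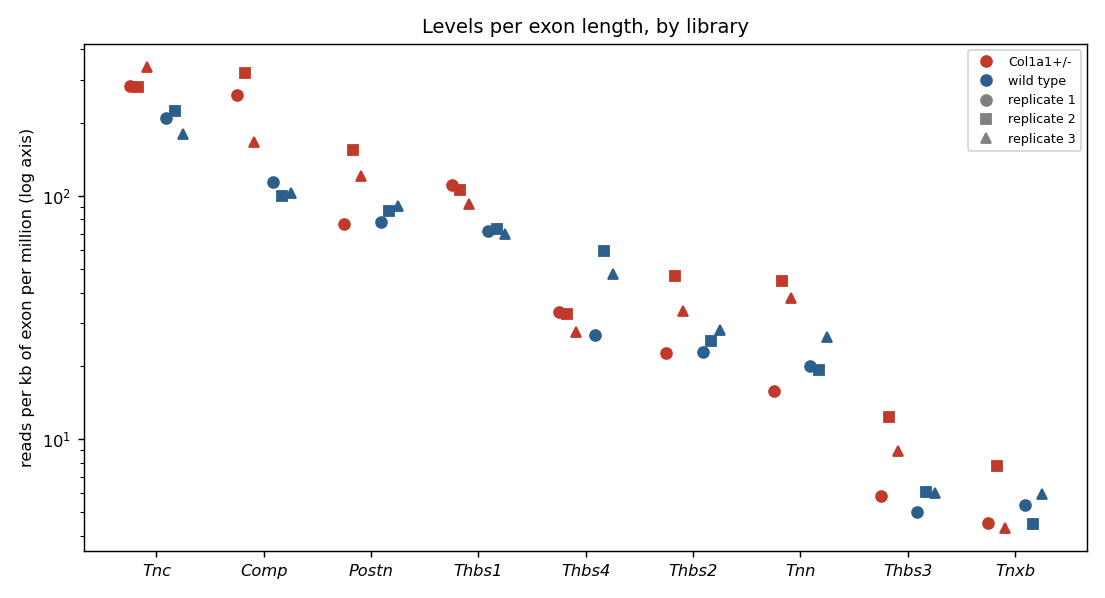
RPKM of each gene on a log axis, Col1a1+/- libraries in red to the left of wild-type libraries in blue, with a marker shape for each replicate number. Tnc, Comp, Postn and Thbs1 lay above the other 5 genes in every library, and Thbs3 and Tnxb lay lowest.

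Thbs1, which encodes thrombospondin-1, the activator of latent TGF-beta and an inhibitor of vessel growth, lies at chr2:117942357-117957614 (GRCm39, plus strand, ENSMUSG00000040152), with 6073 bases of exon, 3.42% of them shared with Gm29233 on the opposite strand. Its level was 676, 644 and 562 CPM in the Col1a1+/- libraries, against 437, 443 and 422 CPM in the wild-type libraries. Every Col1a1+/- library was above every wild-type one, and the wild-type libraries lay close together (highest over lowest 1.05). The means were 627 ± 58.9 CPM over the Col1a1+/- libraries and 434 ± 11.0 CPM in wild type, a 1.45-fold difference (log2 fold change 0.53, SE 0.13) that missed the threshold by edgeR (adjusted p = 0.055). By DESeq2 it passed (adjusted p = 0.00147), and it passed under 6 of the 17 alternatives in all, whose adjusted p ran from 0.00147 to 0.807.

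Thbs2, at chr17:14885762-14914497 (minus strand, ENSMUSG00000023885), encodes thrombospondin-2, a trimer like thrombospondin-1 that does not activate TGF-beta and whose loss in mice disturbs collagen fibrils. Its level was 158, 329 and 235 CPM in the Col1a1+/- libraries, against 160.2, 177 and 197 CPM in the wild-type libraries. Col1a1+/- replicate 1 lay below the lowest wild-type library and replicates 2 and 3 lay above the highest, so the groups overlapped. The log2 fold change was 0.44 (SE 0.24, edgeR adjusted p = 0.337), within the spread between libraries. The ratio of Thbs2 to Thbs1 reads was 0.234, 0.511 and 0.419 in Col1a1+/- libraries and 0.367, 0.400 and 0.467 in wild-type libraries (exact permutation p = 0.9, two-sided; 1.0 adjusted over the 6 ratios compared).

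Thbs3 encodes the pentameric thrombospondin-3, whose loss in mice speeds skeletal maturation, and lies at chr3:89122487-89134144 (plus strand, ENSMUSG00000028047). Of its exon bases 6.59% are shared with Mtx1 on the opposite strand, and the counting took no account of strand. It had 28.1, 59.7 and 43.0 CPM in the Col1a1+/- libraries, against 24.1, 29.3 and 29.1 CPM in the wild-type libraries. The lowest Col1a1+/- library fell inside the wild-type range and the other 2 were above it. The log2 fold change of 0.66 (SE 0.25) did not pass by edgeR (adjusted p = 0.173), and it passed by DESeq2 only (adjusted p = 0.0476; range over 17 alternatives 0.0476 to 0.807).

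Thbs4 encodes thrombospondin-4, a pentamer of tendon and muscle, and lies at chr13:92888098-92931326 (minus strand, ENSMUSG00000021702). It was the one gene of the 9 with a lower mean in Col1a1+/-, at 109, 108 and 91.0 CPM, against 88.3, 195 and 157 CPM in the wild-type libraries. Wild-type replicate 1 was the lowest of all 6 and the other 2 wild-type libraries were the highest, so the groups overlapped. The log2 fold change was -0.51 (SE 0.26, edgeR adjusted p = 0.303). Without wild-type replicate 1 it was -0.75 and passed (edgeR adjusted p = 0.0132; range over 17 alternatives 0.0132 to 0.997). Fitted beside the skeletal muscle score the log2 fold change was 0.026, and beside the tendon score -0.061.

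Comp, cartilage oligomeric matrix protein, binds cartilage collagens and matrilins, and human mutations in it cause pseudoachondroplasia. The gene lies at chr8:70826208-70834716 (plus strand, ENSMUSG00000031849). Its level was 769, 946 and 492 CPM in the Col1a1+/- libraries, against 338, 297 and 304 CPM in the wild-type libraries. Every Col1a1+/- library was above every wild-type one, with the Col1a1+/- libraries spread 1.92-fold between lowest and highest and the wild-type libraries 1.14-fold. The means were 736 ± 229 CPM over the Col1a1+/- libraries and 313 ± 22.3 CPM in wild type, a 2.35-fold rise (log2 fold change 1.23, SE 0.22) that passed by edgeR (adjusted p = 0.0299), and 3 libraries against 3 give a smallest exact permutation p of 0.1. The call was lost without Col1a1+/- replicate 1 (adjusted p = 0.131), wild-type replicate 2 (0.0879) or wild-type replicate 3 (0.105), with log2 fold changes between 1.01 and 1.48 over the 6 omissions. Over all 17 alternatives 9 kept the call, with adjusted p from 1.09e-06 to 0.572. Among those that lost it were also the fits with a skeletal muscle score (log2 fold change 1.94), an erythroid and neutrophil score (1.49) and a cartilage score (0.71), and osteocyte scaling (0.41). The fits with a muscle or a cartilage score, without Col1a1+/- replicate 1 or without wild-type replicate 3 called 0 of all tested genes.

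Cartilage markers, like Comp, were higher in Col1a1+/- libraries. Their summed share of counts was 0.948%, 0.822% and 0.717% in Col1a1+/- replicates 1, 2 and 3. In wild-type replicates 1, 2 and 3 it was 0.325%, 0.462% and 0.344%. Within each genotype the order of this share was not that of Comp. The cartilage score, the mean log2 CPM of these markers, was 6.70, 6.77 and 5.74 in Col1a1+/- libraries, in the order of Comp. In wild-type libraries the score was 4.80, 5.74 and 4.66, not in the order of Comp. All 14 chondrocyte markers were detected and had log2 fold changes above 0 (median 1.20), with Col2a1, Acan and Col10a1 called higher by edgeR (8 by DESeq2 and 5 by limma-voom), and together they took 0.717% to 0.948% of counts in Col1a1+/- libraries and 0.325% to 0.462% in wild-type libraries. Comp reads per 100 reads of these markers were 8.37, 11.5 and 7.24 in the Col1a1+/- libraries, against 11.5, 5.95 and 7.86 in the wild-type libraries. Relative to these markers the groups overlapped. Most of the marker reads were those of Col11a2 and Col2a1, so the summed share and this ratio rest mainly on these genes. With the cartilage score in the fit, the log2 fold change of Comp was 0.71 (edgeR adjusted p = 0.55). That fit called 0 of all 18514 tested genes, so the lost call is not particular to Comp. The ratio of Comp to Thbs4, the pentameric genes that went opposite ways, was 7.05, 8.79 and 5.40 in Col1a1+/- libraries and 3.83, 1.52 and 1.94 in wild-type libraries. The groups did not overlap and differed 3.09-fold (exact permutation p = 0.1, adjusted 0.6). Thbs3 to Comp was 0.0365, 0.0631 and 0.0874 in Col1a1+/- libraries and 0.0714, 0.0986 and 0.0957 in wild-type libraries, and overlapped (exact permutation p = 0.2, adjusted 0.6).

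Tnc encodes tenascin-C, the tenascin of developing and loaded connective tissue, which binds fibronectin and integrin alpha 9, and lies at chr4:63878022-63965252 (minus strand, ENSMUSG00000028364). Its level was 2200.0, 2172 and 2633 CPM in the Col1a1+/- libraries, against 1632, 1739 and 1392 CPM in the wild-type libraries. The groups did not overlap, and the means were 2335 ± 258 CPM over the Col1a1+/- libraries and 1588 ± 178 CPM in wild type. The 1.47-fold difference (log2 fold change 0.56, SE 0.18) did not pass by edgeR (adjusted p = 0.102), and it passed by DESeq2 (adjusted p = 0.00354) and without the filter on low counts (range over 17 alternatives 0.00354 to 0.927).

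Tnn encodes tenascin-N (also called tenascin-W), a tenascin of bone and periosteum, and lies at chr1:159912599-159981150 (minus strand, ENSMUSG00000026725). It had 91.4, 259.8 and 221 CPM in the Col1a1+/- libraries, against 116, 112 and 153 CPM in the wild-type libraries. Both the lowest and the highest value of the 6 libraries were Col1a1+/-, a 2.84-fold span within that genotype. The log2 fold change was 0.59 (SE 0.37, edgeR adjusted p = 0.403). Tnn to Tnc reads stood at 0.0416, 0.120 and 0.0839 in Col1a1+/- libraries and 0.0710, 0.0644 and 0.110 in wild-type libraries (exact permutation p = 1.0, adjusted 1.0).

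Tnxb encodes tenascin-X, a fibril-spacing protein whose loss in humans causes a form of Ehlers-Danlos syndrome, and lies at chr17:34879431-34938789 (plus strand, ENSMUSG00000033327). Its level was 61.1, 105 and 58.2 CPM in the Col1a1+/- libraries, against 72.3, 60.5 and 80.3 CPM in the wild-type libraries. Col1a1+/- replicate 2 was the highest and replicate 3 the lowest of all 6. Its log2 fold change was 0.07 (SE 0.23, edgeR adjusted p = 0.898) and turned negative without Col1a1+/- replicate 2 or without wild-type replicate 2. Tnxb to Tnc was 0.0278, 0.0482 and 0.0221 in Col1a1+/- libraries and 0.0443, 0.0348 and 0.0577 in wild-type libraries (exact permutation p = 0.3, adjusted 0.6).

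Postn lies at chr3:54268530-54298458 (plus strand, ENSMUSG00000027750). Its level was 669, 1349 and 1052 CPM in the Col1a1+/- libraries, against 679, 754 and 791 CPM in the wild-type libraries. Col1a1+/- replicate 1 was the lowest library of the 6 and the other Col1a1+/- libraries were the highest. The log2 fold change of 0.47 (SE 0.24) did not pass by edgeR (adjusted p = 0.288). The ratio of Postn to Tgfbi, its paralog with the same fasciclin domains, was 7.55, 16.5 and 11.5 in Col1a1+/- libraries and 6.63, 11.6 and 11.1 in wild-type libraries (exact permutation p = 0.6, adjusted 0.9).

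**Figure D3:**
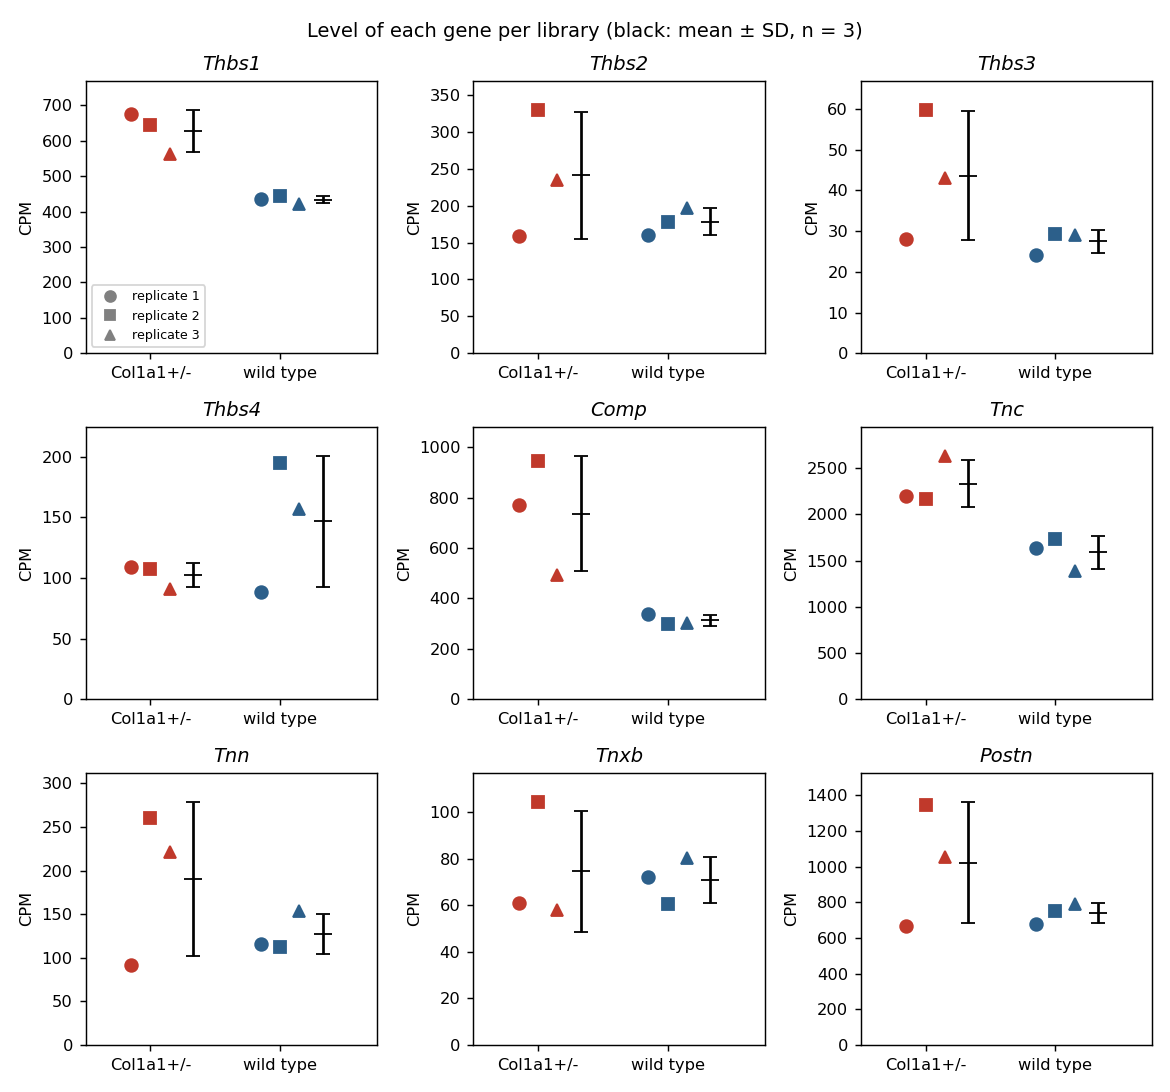
CPM of each of the 9 genes in every library (vertical axes start at 0), Col1a1+/- in red left of wild type in blue, with a marker shape for each replicate number and black bars for the mean ± SD (n = 3). Comp, Thbs1 and Tnc had no overlap between genotypes, and Thbs2, Thbs3, Tnn and Postn were high in Col1a1+/- replicates 2 and 3 and lower in replicate 1, which lay below the wild-type libraries except for Thbs3, where it lay among them.

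Thbs2, Thbs3, Tnn and Postn shared an order over the Col1a1+/- libraries, highest in replicate 2, then 3, then 1. Within Col1a1+/- the highest library exceeded the lowest 2.08-fold for Thbs2, 2.13-fold for Thbs3, 2.84-fold for Tnn and 2.02-fold for Postn. Within wild type those spans were 1.23-fold, 1.21-fold, 1.37-fold and 1.17-fold. Among all tested genes the SD of log2 CPM within Col1a1+/- stood at percentile 94.9 for Tnn, 86.7 for Thbs3, 86.0 for Thbs2 and 85.2 for Postn, and the family's next were Comp at 83.7 and Tnxb at 82.8, so 6 of the 9 genes were among the more variable ones there. Thbs1 was steady in wild type, at percentile 2.84, and Thbs4 was variable there, at percentile 86.1.

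The likeness of 2 profiles was measured as the root mean square distance of their log2 CPM over the 6 libraries, each centred on its own mean, among 9867 genes of at least 10 CPM. Thbs2 and Postn were 0.0487 apart, closer than either was to any gene outside the family. The ratio of Thbs2 to Postn reads, chosen after its values were seen, was 0.237, 0.244 and 0.223 in Col1a1+/- libraries and 0.236, 0.235 and 0.249 in wild-type libraries, a span of 1.11-fold over all 6. Outside the family, Postn was nearest to Col12a1 (0.0769), a fibril-associated collagen, and to Col16a1 (0.115), and Thbs2 to the same pair (Col16a1 0.109, Col12a1 0.117). Thbs3 was nearest to Htra1 (0.0909), a secreted serine protease, and to Col12a1 (0.145), while Tnn was nearest to Col3a1 (0.0782), the type III collagen gene, and to Spon2 (0.204).

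The other genes had other neighbours. Thbs1 was nearest to Ralgps2 (0.0402) and to Reck (0.0510), a membrane-anchored inhibitor of metalloproteinases, and Tnc to Eml4 (0.0330) and Enc1 (0.0459). Comp was nearest to Eps8l2 (0.155) and Sox9 (0.168), the transcription factor that drives cartilage genes. Thbs4 was nearest to Ephx2 (0.101) and Gstp-ps (0.106), a pseudogene whose counts may hold reads of a near-identical gene, and Tnxb to Tspan2 (0.0728) and Col8a2 (0.127). These distances describe 6 libraries that also differ in muscle and marrow content.

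**Figure D4:**
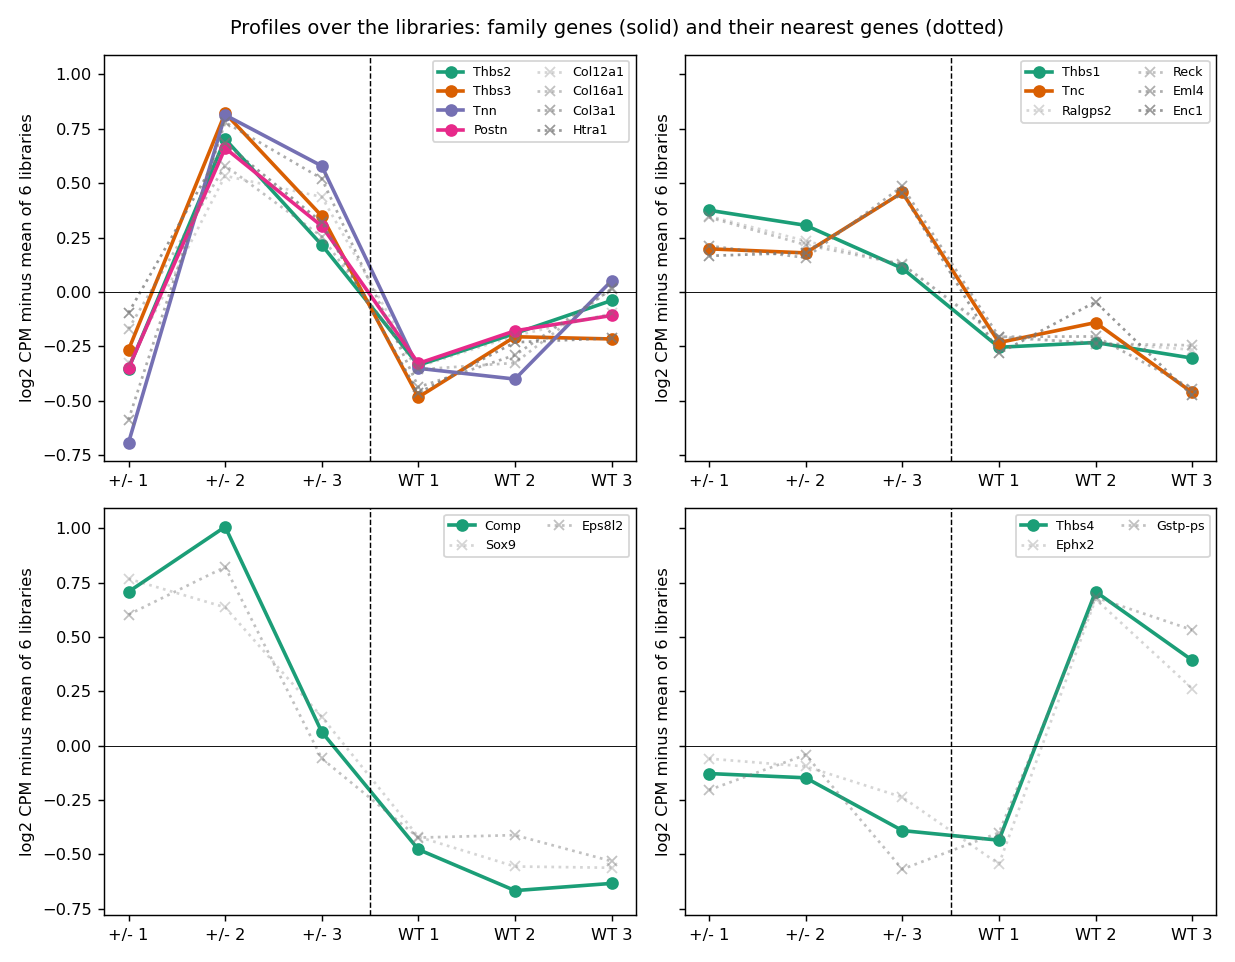
Log2 CPM minus its mean over the 6 libraries, with Col1a1+/- replicates (+/- 1 to 3) left of the dashed line and wild-type replicates (WT 1 to 3) right of it, for family genes (solid) and nearest genes outside the family (dotted). Thbs2, Thbs3, Tnn and Postn peaked in Col1a1+/- replicate 2, Thbs1 and Tnc were high in all 3 Col1a1+/- libraries, and Thbs4 was highest in wild-type replicates 2 and 3.

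Promoter sequences are shown for the 4 genes that shared the order over Col1a1+/- libraries, as the 250 bases before the start given by RefSeq on GRCm38.p6. RefSeq entries matched 7 of the 9 genes, all but Thbs1 and Comp. Capitals mark TATAAA (the TATA box) and CCAAT (the CCAAT box) on either strand, so TTTATA and ATTGG are their reverse complements; CANNTG (the E-box) and TGANTCA (the AP-1 site) were also searched on both strands, and no matches overlapped. For Thbs2, neither of its 2 GENCODE vM21 transcripts held the bases just after this start near its beginning, so the distances for Thbs2 are from the RefSeq start alone. Such a match was found for 1 of 11 transcripts of Thbs3, 1 of 2 of Tnn and 2 of 9 of Postn. Postn had another RefSeq entry, matched by 0 of 9 transcripts and without TATAAA, and the entry with more matches is shown. Each sequence is written 5′ to 3′ along the gene's own strand.
Thbs2 (chr17:14694263-14694512, minus strand): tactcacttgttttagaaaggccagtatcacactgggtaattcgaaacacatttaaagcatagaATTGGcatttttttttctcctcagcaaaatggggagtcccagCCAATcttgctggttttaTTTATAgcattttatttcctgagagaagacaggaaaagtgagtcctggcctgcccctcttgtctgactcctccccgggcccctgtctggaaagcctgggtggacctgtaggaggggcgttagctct
Thbs3 (chr3:89214930-89215179, plus strand): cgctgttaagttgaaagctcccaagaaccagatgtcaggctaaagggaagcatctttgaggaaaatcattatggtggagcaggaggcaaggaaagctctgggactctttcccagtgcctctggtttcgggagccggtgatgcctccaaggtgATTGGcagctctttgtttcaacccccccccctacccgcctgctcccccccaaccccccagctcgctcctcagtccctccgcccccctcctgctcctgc
Tnn (chr1:160153576-160153825, minus strand): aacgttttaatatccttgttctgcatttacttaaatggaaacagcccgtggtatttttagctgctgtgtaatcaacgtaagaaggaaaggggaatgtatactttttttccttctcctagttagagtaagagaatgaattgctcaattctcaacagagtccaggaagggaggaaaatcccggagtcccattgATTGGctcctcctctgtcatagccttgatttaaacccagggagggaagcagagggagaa
Postn (chr3:54360857-54361106, plus strand): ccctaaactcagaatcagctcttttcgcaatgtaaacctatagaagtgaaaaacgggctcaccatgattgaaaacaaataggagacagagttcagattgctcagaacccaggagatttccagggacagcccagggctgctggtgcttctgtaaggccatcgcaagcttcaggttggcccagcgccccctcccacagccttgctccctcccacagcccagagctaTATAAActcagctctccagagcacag
Postn carried TATAAA 26 bases before the start, and Thbs2 carried it 126 bases before. CCAAT was found 186 and 144 bases before the start in Thbs2, 98 in Thbs3 and 59 in Tnn, and not in the Postn window. CANNTG stood 246 bases before the start in Thbs2 and 222 in Thbs3, and TGANTCA was in none of the 4 windows. Of 32851 RefSeq promoter windows of the same length, 12.4% held TATAAA, 33.8% CCAAT, 66.2% CANNTG and 6.75% TGANTCA, so no searched motif was common to the 4 genes.

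Together the 9 genes took 0.491%, 0.598% and 0.569% of all counts in the Col1a1+/- libraries, against 0.391%, 0.353% and 0.314% in the wild-type libraries. Every Col1a1+/- library was above every wild-type one, with means of 0.553% ± 0.0551 in Col1a1+/- and 0.353% ± 0.0384 in wild type, a ratio of 1.57 (exact permutation p = 0.1, the smallest possible here). Outside the skeletal muscle, erythroid and neutrophil markers the ratio was 1.51 (exact permutation p = 0.1). Within the family's summed RPKM, Comp made up 27.9% ± 6.85 in Col1a1+/- and 18.6% ± 1.93 in wild type, and the ranges overlapped. Thbs4 made up 3.56% ± 0.457 in Col1a1+/- and 7.78% ± 2.63 in wild type, the only share of the 9 without overlap (exact permutation p = 0.1, not adjusted over the 9). The CPM of Thbs4 itself overlapped, and its share also falls when Tnc and Comp, the largest parts of the sum, are higher.

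Of 4 relatives that carry the same domains (Tnr, Tgfbi, Stab1 and Stab2), Tnr was too low to test, and Stab1, a scavenger receptor with fasciclin domains, was the one called, higher by 1.36-fold (log2 fold change 0.45, SE 0.10, edgeR adjusted p = 0.0435). Stab2 had the smallest p among those below 0, with a log2 fold change of -0.29 (adjusted p = 0.169), and the median of the 3 tested was 0.14. Among 19 receptors and surface partners, Itga5 of the fibronectin receptor was called higher (1.38-fold, adjusted p = 0.0497), a call lost with library totals (0.0725) and with the tendon score (0.0531) and held under 5 of 17 alternatives (range 0.0162 to 0.899), and Cacna2d1, Stim1 and Itga7 were called lower. Cacna2d1, a calcium channel subunit that binds thrombospondins in the brain, had 70.3, 109 and 72.7 CPM in the Col1a1+/- libraries, against 162, 173 and 212 CPM in the wild-type libraries (log2 fold change -1.12, SE 0.19, adjusted p = 0.0263). Its groups did not overlap. Itga7 is the laminin-binding integrin of muscle, and Cacna2d1 and Stim1 also serve muscle excitation. The muscle markers were lower in the same libraries, with 15 of 17 not overlapping. With the muscle score in the fit the log2 fold change of Cacna2d1 was -0.30. That score separated the genotypes, and the fit called 0 of all 18514 tested genes. Muscle content cannot be told apart from genotype here, and its part in these lower calls was not tested. The median log2 fold change of the 19 was 0.12.

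Matrix proteins and enzymes that bind thrombospondins, tenascins or periostin had a median log2 fold change of 0.93, with all 16 above 0, against -0.01 over all tested genes. Of the 16, 7 are also among the cartilage markers. With a cartilage score in the fit the median was 0.39, but that fit called 0 of all 18514 tested genes. With osteocyte scaling the median was 0.19 and 0 of the 16 were called. The median of all genes was then -0.85, and 0.111% of all calls were higher. By edgeR, 5 were called higher and none lower: Fn1 (fibronectin), Bmp1, Lox, Col2a1 and Acan. Acan, the cartilage proteoglycan aggrecan, had 225, 253 and 158 CPM in the Col1a1+/- libraries, against 75.6, 91.5 and 60.3 CPM in the wild-type libraries (log2 fold change 1.48, SE 0.21, edgeR adjusted p = 0.0218). Every Col1a1+/- library was above every wild-type one. Bmp1 and Lox, the enzymes that periostin brings together, had log2 fold changes of 0.79 (adjusted p = 0.039) and 0.80 (adjusted p = 0.029).

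Of 15 other matricellular genes, 5 were called higher (Smoc2, Ccn1, Ccn2, Ccn4 and Mfge8) and none lower, with a median log2 fold change of 0.39. DESeq2 called 7 of them higher, and the fit with the replicate block called 0. With osteocyte scaling the median was -0.38 and 0 of the 15 were called, where the median of all genes was -0.85. Ccn2, connective tissue growth factor and a common target of TGF-beta, had 244, 235 and 185 CPM in the Col1a1+/- libraries, against 124, 130.2 and 129.9 CPM in the wild-type libraries (log2 fold change 0.79, SE 0.13, edgeR adjusted p = 0.0239). The groups did not overlap. Sparcl1 had the smallest p among those below 0 (log2 fold change -0.40, adjusted p = 0.0949).

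Of 12 proteases known to cut a member of the family, 11 were tested and none was called by the main edgeR fit or limma-voom. All 11 log2 fold changes were above 0 (median 0.53), 6 had an unadjusted p under 0.05, and DESeq2 called 3 higher. In other edgeR fits, 4 were called higher without the low-count filter, 2 with the tendon score and 1 with library totals. Htra1 had the smallest p (log2 fold change 0.64, adjusted p = 0.0855). Among 15 ligands and regulators known to act on these genes, Sox9 was called higher (26.1, 23.8 and 16.8 CPM in Col1a1+/- libraries, 11.5, 10.4 and 10.4 CPM in wild-type libraries; log2 fold change 1.05, SE 0.18, edgeR adjusted p = 0.0246) and none lower. Srf, the partner of the actin-sensing factor Mrtfa, was nearest to a call below 0 (log2 fold change -0.37, adjusted p = 0.0821). The median over the 15 was 0.08. Scaled on osteocyte genes, Stab1, Itga5, Ccn2 and Htra1 were below 0 as well, and Acan and Sox9 did not.

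Some markers of tendon, fibroblast and erythroid cells shared an order over the Col1a1+/- libraries with some of the 9 genes. The 5 tendon markers took 0.0300%, 0.0590% and 0.0487% of counts in the Col1a1+/- libraries, against 0.0273%, 0.0378% and 0.0370% in the wild-type libraries, the same order over Col1a1+/- libraries as Postn, Thbs2, Thbs3 and Tnn. Taken gene by gene, 3 of the 5 tendon, 3 of 6 fibroblast (Dpt, Clec3b and Mfap5) and 4 of 9 erythroid markers held that order, beside 13.3% of all tested genes. The summed fibroblast share did not, being highest in replicate 3, then 2, then 1. Most of the tendon sum was Fmod, with 270.0, 565 and 442 CPM in Col1a1+/- libraries, against 227, 364 and 373 CPM in wild-type libraries. The more tendon-restricted Tnmd had the same order over Col1a1+/- libraries but a lower mean in that genotype, at 3.96, 6.22 and 5.86 CPM in Col1a1+/- libraries, against 5.83, 17.1 and 12.3 CPM in wild-type libraries. None of the 5 tendon markers was called by the main edgeR fit or limma-voom (median log2 fold change -0.49, 2 with an unadjusted p under 0.05, 2 lower by DESeq2). Other edgeR fits called some, 1 lower without the low-count filter and 1 higher with the tendon score. The part of tendon markers in the levels of these 4 genes was not tested beyond the fit with a tendon score.

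**Figure D5:**
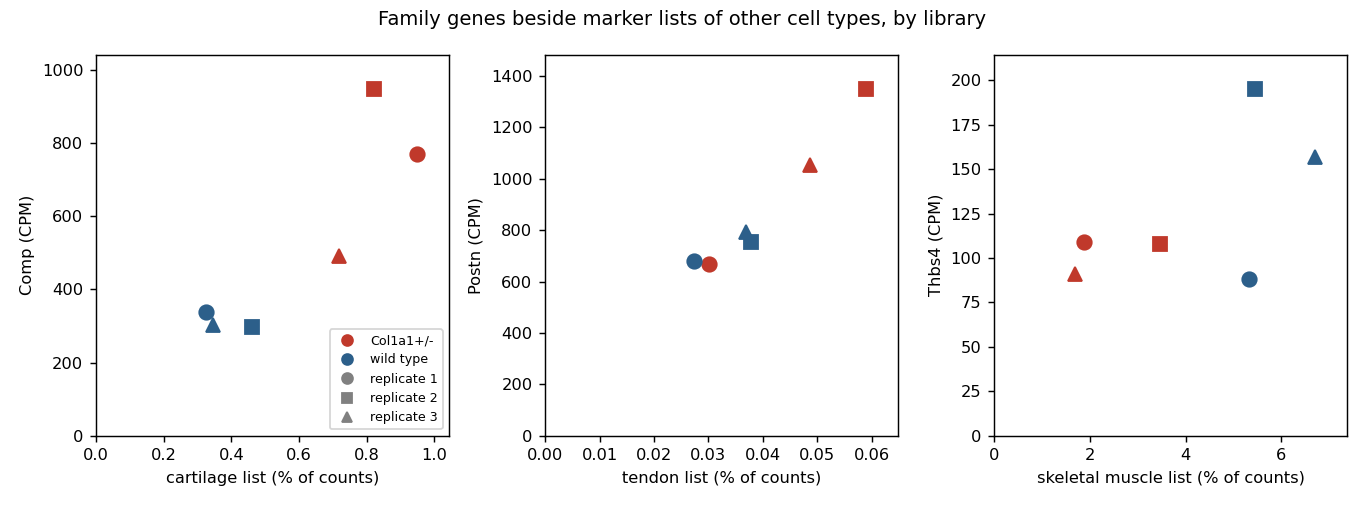
CPM of Comp, Postn and Thbs4 (vertical axes) against the percent of counts taken by the cartilage, tendon and skeletal muscle marker lists (horizontal axes), 1 point for each library, Col1a1+/- in red and wild type in blue. Comp and the cartilage share were both higher in all 3 Col1a1+/- libraries, Postn was highest in the 2 libraries with the highest tendon share, and the muscle share was lower in all 3 Col1a1+/- libraries while Thbs4 overlapped.

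Osteoblast markers took 1.14% to 1.28% of counts in Col1a1+/- libraries and 0.552% to 0.668% in wild-type libraries, with 8 of 12 called higher. Osteocyte markers took 0.0817% to 0.133% in Col1a1+/- and 0.0440% to 0.0885% in wild type, fibroblast markers 0.0240% to 0.0291% in Col1a1+/- and 0.0196% to 0.0220% in wild type, and platelet markers, whose cells store thrombospondin-1, 0.0215% to 0.0305% in Col1a1+/- and 0.0310% to 0.0383% in wild type. Of these, Gp1ba of the platelet list was called, lower, and no osteocyte or fibroblast marker was called by edgeR or limma-voom, with 1 of 8 and 2 of 6 at an unadjusted p under 0.05 and 1 and 2 called by DESeq2. Thbs1 was higher and the platelet share lower in every Col1a1+/- library than in any wild-type library, but within Col1a1+/- both ran highest in replicate 1, then 2, then 3, and their relation was not tested. Among vessel and nerve markers, Myh11 of the 6 smooth muscle markers was called lower, and none of 8 endothelial or 7 Schwann cell markers was called by edgeR or limma-voom (0 and 1 at an unadjusted p under 0.05; 0 and 1 called by DESeq2). The erythroid markers took 0.313% to 0.350% in Col1a1+/- and 0.205% to 0.367% in wild type, and the neutrophil markers 0.0942% to 0.156% in Col1a1+/- and 0.134% to 0.560% in wild type, none called by edgeR, limma-voom or DESeq2 (0 and 3 of 9 each at an unadjusted p under 0.05). Other edgeR fits called some of these markers, such as 4 osteocyte markers higher and 8 neutrophil markers lower with the tendon score. Whether any of these contents bears on the 9 genes was not tested beyond the fits with muscle, marrow, tendon and cartilage scores.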

How the data were processed

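The authors deposited raw read counts per gene, 1 table for each library, with exon length in bases per the file headers, and no normalization. Reads were trimmed with Trimmomatic 0.39, aligned with HISAT2 2.2.1 and handled with SAMtools 1.20, per the submitters' processing notes, and counted by featureCounts 2.0.3 over Ensembl 107 exons of GRCm39, per the file headers. The command in those headers sets no strand and drops multi-mapping and multi-gene reads, and the mates of a pair were counted separately. The extract protocol in the labels says that marrow was flushed and poly-A RNA selected. Symbols were matched by gene ID (91.8% of IDs).

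Genes were kept by filterByExpr, scaled by TMM and compared with edgeR 4.0.16 (R 4.3.3, robust quasi-likelihood F test, two-sided, genotype the only term, Benjamini-Hochberg over 18514 genes, threshold 0.05). That is the main fit, and a call by edgeR is a call in it unless an alternative is named. CPM uses TMM library sizes, RPKM adds exon length, and the log2 CPM of scores and profiles has a prior count of 2. An SE is the absolute log2 fold change over the square root of F. Shares and ratios were compared by exact permutation tests. Alternatives used DESeq2 1.42.0 and limma 3.58.1 (voom), other scalings and filters, a replicate block, marker scores as covariates and each library left out. Depth of 26.8 to 32.4 M reads made counting error small beside the spread between libraries, and no library was a copy of another (chi-square per degree of freedom at least 25.6 within a genotype).

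The 9 genes, the 6 pathway lists and the 12 cell type lists were chosen with earlier results of these data known. The named genes are the 9, Col1a1, the smallest p in each direction of each pathway list and the 2 nearest profiles of each gene. Other called genes of the lists, Col1a2, Col11a2, Fmod, Tnmd, Dpt, Clec3b and Mfap5 were named after their values were seen. The ratios of Thbs2 to Postn, Col1a1 to Col1a2 and Comp to cartilage markers were chosen then too.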

Additional observations from a re-analysis of the deposited data

How the results depend on the processing

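The edgeR fit called 803 genes, 1 of them in the family. Counts moved to 1327 genes and 2 of the family with library totals, 2086 and 4 with DESeq2, 1472 and 3 without the low-count filter, and 1761 and 2 with a tendon score. They moved to 46 and 0 with an erythroid and neutrophil score, and to 1804 and 0 with libraries scaled on osteocyte genes. With a skeletal muscle or a cartilage score both counts were 0 (1112 and 2001 genes at an unadjusted p under 0.05). RLE scaling gave 860 genes and 1 of the family, and limma-voom 957 and 2. Higher calls were 33.0% of all calls by edgeR, 44.3% with library totals, 44.0% with the tendon score and 0.111% with osteocyte scaling. Leaving out each library gave 0 to 1766 genes and 0 to 3 of the family: 0 genes without Col1a1+/- replicate 1 (3275 at an unadjusted p under 0.05) or wild-type replicate 3 (3239), 8 without wild-type replicate 2, 44 without replicate 3 of Col1a1+/-, 930 without its replicate 2 and 1766 without wild-type replicate 1. These causes were not tested.

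With the replicate block, 126 genes and 0 of the family were called, and Comp lost its call (log2 fold change 1.18, adjusted p = 0.0583). Deviations of same-numbered libraries correlated at 0.107, 0.0413 and -0.122, so the numbers were not taken as pairs, and not every library correlated best with its own number.

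Direction turned with osteocyte scaling for Thbs1 (-0.29), Thbs2 (-0.40), Thbs3 (-0.15), Tnc (-0.29), Tnn (-0.31), Tnxb (-0.78), Postn (-0.38), Col1a1 (-0.55), Stab1 (-0.40), Itga5 (-0.42), Ccn2 (-0.013), Htra1 (-0.18), Ralgps2 (-0.35), Reck (-0.37), Col16a1 (-0.38), Col12a1 (-0.38), Eml4 (-0.29), Enc1 (-0.29), Col3a1 (-0.29), Spon2 (-0.45), Tspan2 (-0.87) and Col8a2 (-0.64), all log2 fold changes, where all genes had a median of -0.85. It also turned for Tspan2 by limma-voom (-0.041) and with the replicate block (-0.030). With the muscle score Thbs4 (0.026), Ephx2 (0.081) and Gstp-ps (0.30) turned, with the erythroid and neutrophil score Col1a1 (-0.084) and Spon2 (-0.22), with the tendon score Ephx2 (0.13), and with the cartilage score Tnxb (-0.074), Col1a1 (-0.0028), Tspan2 (-0.097) and Col8a2 (-0.047). With 1 library left out, Tnxb ran from -0.25 to 0.24, Tspan2 from -0.28 to 0.16 and Col8a2 from -0.041 to 0.37. Log2 ratio differences then ran from -0.39 to 0.18 for Thbs2 to Thbs1, -0.43 to 0.33 for Tnn to Tnc and -0.029 to 0.54 for Postn to Tgfbi. Of 644 alternative values 44 turned, 28 moved, 83 lost a call and 20 gained one. With 10 added to each count, every ratio kept its direction, and so did the family's share of counts outside muscle, erythroid and neutrophil markers.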
